A study of Homo sapiens with 15 samples.

Results

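The mature miRNAs of the miR-9, miR-124 and miR-218 hairpins were followed in small RNA sequencing data of HEK293 derivatives. They were taken as all names that start with hsa-miR-9-, hsa-miR-124- or hsa-miR-218-, which gave 7 of the 2424 miRNAs counted in the series. These are both arms of miR-9 (hsa-miR-9-5p and hsa-miR-9-3p), both arms of miR-124 (hsa-miR-124-3p and hsa-miR-124-5p), and the shared 5p arm and both 3p arms of miR-218 (hsa-miR-218-5p, hsa-miR-218-1-3p and hsa-miR-218-2-3p). All 7 were counted in every library.

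A miRNA hairpin is cut into a 5p and a 3p strand, of which usually a single strand, the guide, is kept in the silencing complex while the other, the passenger, is degraded. The guide pairs with messenger RNAs mainly through its seed, bases 2 to 8. miR-9 and miR-124 are classical miRNAs of the nervous system, where miR-9 acts in neural progenitors and miR-124 in neurons, and miR-218 is known from motor neurons. The usual guides are miR-9-5p, miR-124-3p and miR-218-5p, and both arms of miR-9 are known to act as guides. N6-methyladenosine (m6A) is a methyl mark on adenosine in RNA that FTO can remove, and the study asked whether miRNAs carry it and whether their levels follow FTO.

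The cells were the lines FTO1C1, FTO2D4 and FTO3C3, each a separate clone derived from the human embryonic kidney line HEK293 and used without induction. For the knockdown, each line was transfected with 10 nM scrambled siRNA or FTO siRNA and harvested after 48 h (scrambled siRNA, n = 3; FTO siRNA, n = 3). For RNA immunoprecipitation sequencing (RIP-seq), small RNA of untreated cells of each line was sequenced directly (input, n = 3), after precipitation with an anti-m6A antibody (m6A, n = 3), or after precipitation with an isotype control antibody (IgG, n = 3). The level of FTO mRNA is not part of miRNA counts, so the extent of the knockdown was not analysed here.

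The members for which a reference sequence was found in RefSeq (GRCh38.p14) are the 5 arms of miR-9 and miR-218. Their mature strands are printed 5′ to 3′ with the seed in capitals, since the arms of a hairpin behaved differently in the precipitates.

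hsa-miR-9-5p: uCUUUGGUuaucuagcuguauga

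hsa-miR-9-3p: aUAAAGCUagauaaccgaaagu

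hsa-miR-218-5p: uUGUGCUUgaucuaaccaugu

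hsa-miR-218-1-3p: aUGGUUCCgucaagcaccaugg

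hsa-miR-218-2-3p: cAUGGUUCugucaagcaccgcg

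The 5 seeds all differ, and none is shared by another of the 2370 mature miRNAs with a sequence in that table. The 3p arms of miR-218 resemble each other, and exact stretches of 10 and 7 bases that they share add up to 17 bases, which is the smallest match the authors accepted for a read, so reads of these arms may not be fully told apart. The core of the m6A consensus, GAC or AAC on the mature strand, occurred once in miR-9-3p (AAC at position 13 from the 5′ end) and once in miR-218-5p (AAC at position 14), and in none of the other 3 arms. It occurred in 39.2% of the 1923 miRNAs of the RIP-seq counts that have a sequence. The full consensus, a pair of purines, then AC, then any base but G, occurred in none of the 5 arms and in 22.9% of those 1923 miRNAs. These matches describe letters and not methylated sites.

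miR-9 is encoded by 3 hairpins that give the same arms, at chr1:156420341-156420429 (minus strand, within MIR9-1HG), chr5:88666853-88666939 (minus strand, within MIR9-2HG) and chr15:89368017-89368106 (plus strand, within MIR9-3HG). Reads of miR-9 therefore cannot be assigned to a locus. miR-218 is encoded at chr4:20528275-20528384 (plus strand) within the axon guidance gene SLIT2 and at chr5:168768146-168768255 (minus strand) within its paralog SLIT3. Here only the 3p arms tell the loci apart, miR-218-1-3p for SLIT2 and miR-218-2-3p for SLIT3.

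Levels are given in RPM, reads per 1000000 miRNA reads of a library. The totals were between 1991317 and 3876806 reads in the knockdown libraries and between 186446 (IgG, FTO3C3) and 4973238 (m6A, FTO3C3) in the RIP-seq libraries. A single miRNA, miR-6080, held 2.05% to 4.18% of the reads in the knockdown libraries, 15.5% to 28.4% in input, 41.3% to 47.8% in m6A and 58.0% to 71.6% in IgG, and it had the identical count of 563404 in the m6A and the IgG library of FTO2D4, so that these totals are in doubt. The 7 arms together made up 0.167% to 0.249% of the reads in the knockdown libraries, 0.0740% to 0.129% in input, 0.0421% to 0.0598% in m6A and 0.0165% to 0.0327% in IgG. RPM are shares, and in such bulk samples fewer expressing cells and less miRNA per cell cannot be told apart.

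In cells with scrambled siRNA, miR-218-5p and miR-9-5p were the leading members and the usual miR-124 guide was among the lowest miRNAs. miR-218-5p had 1046 RPM in FTO1C1, 1299 in FTO2D4 and 1384 in FTO3C3 (mean 1243 ± 176 (SD, n = 3)) and ranked 76th of 2418 miRNAs. miR-9-5p had 606, 873 and 687 RPM in the same order of lines (722 ± 137 (SD, n = 3)) and ranked 110th. These usual guides were abundant in all 3 clones, and miR-218-5p was above miR-9-5p in each of them.

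miR-9-3p, the other arm of the miR-9 hairpin, had 147, 174 and 223 RPM in FTO1C1, FTO2D4 and FTO3C3 (181 ± 38.5 (SD, n = 3)). miR-218-1-3p, the 3p arm of the SLIT2 locus, had 33.0, 45.9 and 34.7 RPM (37.8 ± 7.004 (SD, n = 3)). miR-218-2-3p, the 3p arm of the SLIT3 locus, had 8.80, 8.93 and 8.54 RPM (8.75 ± 0.199 (SD, n = 3)). All 3 arms were below the 5p arm of their hairpin in every line. The read count of the SLIT2-specific arm was 3.75, 5.14 and 4.06 times that of the SLIT3-specific arm in the 3 lines, from 69 to 120 reads against 17 to 32.

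For miR-124 the order of the arms was the opposite of the usual pattern. miR-124-3p, the usual neuronal guide, had 5.77, 6.09 and 6.53 RPM in FTO1C1, FTO2D4 and FTO3C3 (6.13 ± 0.380 (SD, n = 3)), which are 13 to 21 reads and rank 2008 of 2418. Almost every miRNA had reads, with 1 of the 2418 at 0 reads in FTO2D4 and 0 of them in FTO1C1 and FTO3C3. The liver miRNA hsa-miR-122-5p was at a mean of 6.11 RPM. Whether levels of a few RPM, including that of miR-218-2-3p, reflect expression was not tested. miR-124-5p, the usual passenger, had 56.6, 83.2 and 61.8 RPM (67.2 ± 14.1 (SD, n = 3)) and ranked 427th. The passenger was thus above the guide in each line, with 3p to 5p ratios of 0.104, 0.0754 and 0.109 after 0.5 read was added to each count. After the rule of the study, an expressed miRNA was taken here as one of at least 15 RPM in the 3 scrambled siRNA libraries. Of the 7 members, 5 passed, and miR-124-3p and miR-218-2-3p did not. The paper words the rule for its 3 input samples. As applied here it was passed by 42.7% of all miRNAs (1032), more than the paper counts as expressed.

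A list of 19 further miRNAs enriched in brain puts these levels in context. Of these, 15 were found in the counts and 12 were expressed by the 15 RPM rule. Their highest level was that of hsa-miR-128-3p, 1224 RPM as a mean of the scrambled siRNA libraries, close to that of miR-218-5p, and the others were at 98.6 RPM (hsa-miR-137) or less: hsa-miR-132-3p, hsa-miR-138-5p, hsa-miR-7-5p, hsa-miR-338-3p, hsa-miR-153-3p, hsa-miR-330-3p, hsa-miR-383-5p, hsa-miR-488-3p, hsa-miR-212-3p and hsa-miR-129-5p, down to 20.2 RPM. The 15 miRNAs summed to 1578 to 1939 RPM, most of which was hsa-miR-128-3p. Of 9 markers of kidney and epithelium, 6 were expressed, with a summed level of 8534 to 9038 RPM, most of which was hsa-miR-192-5p (mean 7540 RPM). Without it the other markers of that list summed to 1222 to 1434 RPM. The brain sum still holds its own leading miRNA, hsa-miR-128-3p, so these sums do not rank the lists. Of the markers of other cell types, 2 of 6 were expressed for blood, 1 of 6 for muscle, 0 of 1 for liver and 0 of 5 for pluripotent cells. The cells thus carried the miR-9 and miR-218 guides but had the defining neuronal miR-124-3p under 15 RPM, so they are named here as HEK293 cells and not as neuronal cells.

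**Figure D1:**
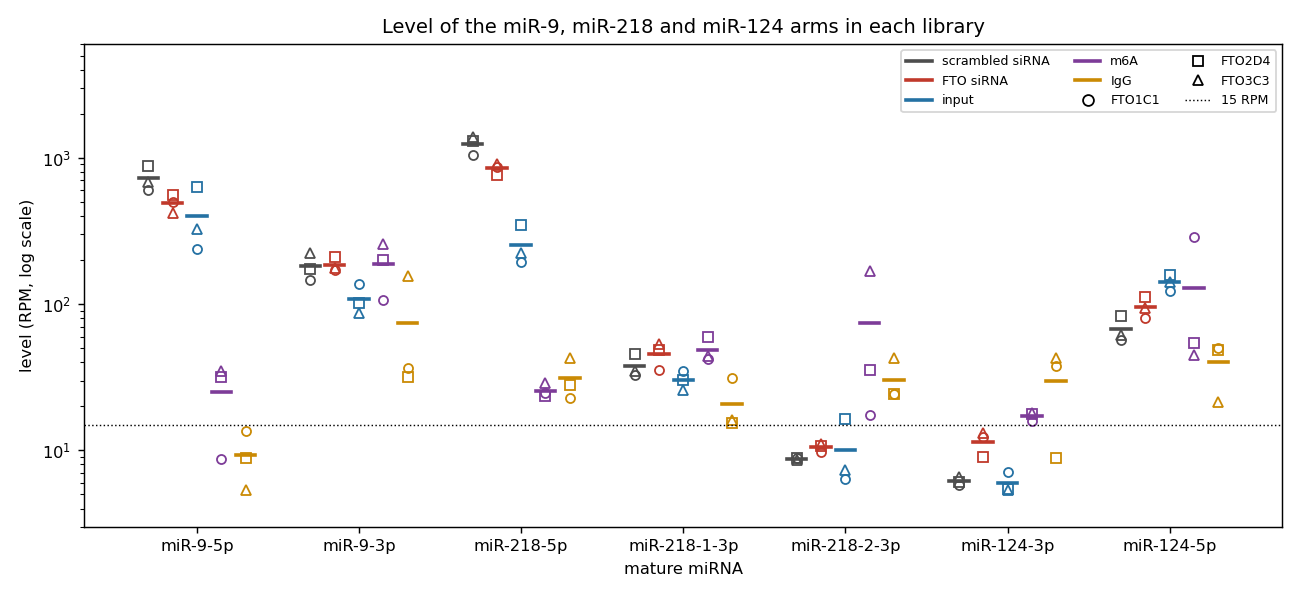
Level of each arm in RPM (log axis) in the 15 libraries, coloured by group, with a symbol per cell line, a bar at the mean of 3 libraries and a dotted line at 15 RPM. miR-9-5p and miR-218-5p were at 606 RPM or more with scrambled siRNA and at 42.9 RPM or less in both kinds of precipitate, while miR-9-3p stayed between 31.8 and 259 RPM in all groups.

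The knockdown comparison asked whether the levels of these miRNAs changed when FTO was reduced. None of the 7 members passed the test (edgeR quasi-likelihood with the cell line as a block, adjusted p under 0.05 by Benjamini-Hochberg over 2374 miRNAs), where 4.97% of all miRNAs tested were called higher and 0.505% lower. At an unadjusted p under 0.05 by edgeR there were 4 members, where 621 of all 2374 miRNAs tested were at that cut. Of the 4, miR-9-5p and miR-218-5p had lower and both arms of miR-124 higher values with FTO siRNA. The median log2 fold change was 0.26 over the 7 members and 0.29 over all miRNAs tested.

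miR-9-5p had 497 RPM in FTO1C1, 554 in FTO2D4 and 422 in FTO3C3 after FTO knockdown (491 ± 65.9 (SD, n = 3)), against 606, 873 and 687 with scrambled siRNA. All 3 values were below the lowest control value, and the ratios within the lines were 0.820, 0.634 and 0.614. The log2 fold change was -0.55 (SE 0.15), with an adjusted p of 0.0656 by edgeR.

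miR-218-5p had 864, 764 and 910 RPM with FTO siRNA (846 ± 74.5 (SD, n = 3)), against 1046, 1299 and 1384. These groups did not overlap either, with ratios of 0.826, 0.588 and 0.657 within FTO1C1, FTO2D4 and FTO3C3. The log2 fold change was -0.55 (SE 0.15), with an adjusted p of 0.0653 by edgeR. Both guides are near the threshold and their call depends on the scaling. They were called lower by edgeR with TMM factors (log2 fold change -0.84 for both, adjusted p of 0.0212 for miR-9-5p and 0.0268 for miR-218-5p) and by DESeq2 (-0.84 for both, adjusted p of 0.000536 and 0.000709). A minimum count of 50 also made them pass in edgeR (adjusted p of 0.0404 and 0.0416).

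The other arms of these hairpins did not share these lower values. miR-9-3p had 172, 210 and 177 RPM after the knockdown in the same order of lines (186 ± 20.7 (SD, n = 3)), within the range of the controls. Its ratio was above 1 in FTO1C1 and FTO2D4 and 0.792 in FTO3C3, and its log2 fold change was 0.05 (SE 0.18) with totals and -0.24 with TMM factors. miR-218-1-3p had 35.3, 48.2 and 53.7 RPM (45.7 ± 9.40 (SD, n = 3)), and miR-218-2-3p had 9.77, 10.7 and 11.1 RPM (10.5 ± 0.677 (SD, n = 3)). The values of miR-218-1-3p overlapped with the controls, while all 3 of miR-218-2-3p were slightly above them. Their log2 fold changes were 0.26 (SE 0.20) and 0.26 (SE 0.24) with totals and -0.03 and -0.04 with TMM factors, with adjusted p of 0.425 and 0.502 by edgeR with totals.

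miR-124-3p had 12.4, 8.95 and 13.2 RPM after the knockdown in FTO1C1, FTO2D4 and FTO3C3 (11.5 ± 2.23 (SD, n = 3)), all above the highest control of 6.53. These are 31 to 51 reads, and the log2 fold change was 0.90 (SE 0.26), with an adjusted p of 0.0675 by edgeR. miR-124-5p had 80.7, 111 and 94.4 RPM (95.4 ± 15.2 (SD, n = 3)), and 1 of these values was below the highest control. It was higher in each line, by ratios of 1.43, 1.34 and 1.53, with a log2 fold change of 0.51 (SE 0.18) and an adjusted p of 0.113 by edgeR. With TMM factors the log2 fold changes were smaller, 0.61 for miR-124-3p (adjusted p of 0.264 by edgeR) and 0.22 for miR-124-5p (0.603). A cut of 1.5-fold in either direction was also applied here to the mean ratio of miRNAs with at least 15 RPM. It was passed by none of the members, where 11.0% of all miRNAs passed it upwards and 0.703% downwards. The mean ratios of miR-9-5p (0.689 ± 0.114 (SD, n = 3)) and miR-218-5p (0.690 ± 0.122 (SD, n = 3)) lay just inside the lower cut, and miR-124-3p, with a mean ratio of 1.88, was under 15 RPM. By its own criteria, the paper lists both miR-9-5p and miR-218-5p among the miRNAs with significantly decreased levels after the knockdown.

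**Figure D2:**
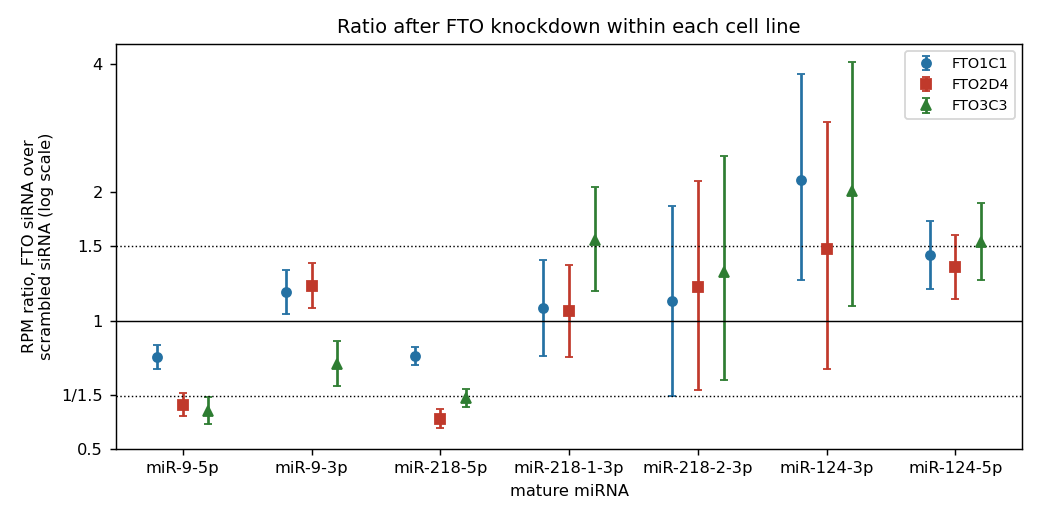
Ratio of the RPM with FTO siRNA over that with scrambled siRNA in each cell line (log axis), for the 7 arms, with a 95% interval for counting error only. The ratios of miR-9-5p lay between 0.614 and 0.820 and those of miR-218-5p between 0.588 and 0.826, while those of both miR-124 arms were above 1; dotted lines mark 1.5 and its inverse.

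The RIP-seq comparisons asked which miRNAs an anti-m6A antibody brings down. The m6A, IgG and input libraries enter 3 comparisons that share libraries, so their values stand side by side and are not independent. In m6A against IgG, 2 of the 7 members were called higher (miR-9-3p and miR-218-1-3p) and none lower by edgeR, where 38.6% of all miRNAs were called higher and 1.27% lower. The median log2 fold change was 1.15 over the 7 members and 0.83 over all 2054 miRNAs tested.

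miR-9-3p had 107, 200 and 259 RPM in the m6A libraries of FTO1C1, FTO2D4 and FTO3C3 (189 ± 76.6 (SD, n = 3)). In the IgG libraries it had 36.4, 31.8 and 156 RPM (74.6 ± 70.2 (SD, n = 3)). It was higher with the anti-m6A antibody in each line, by 2.94, 6.28 and 1.67 times, although the IgG value of FTO3C3 was above the m6A value of FTO1C1. The log2 fold change was 1.64 (SE 0.42), with an adjusted p of 0.0132 by edgeR. The call was lost with totals without miR-6080 (0.97, adjusted p of 0.0651), with TMM factors (0.90, 0.0852), with DESeq2 (0.87, 0.134), with no replicate block (1.51, 0.0608) and without the libraries of FTO2D4 (1.13, 0.123).

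miR-9-3p was also the only member that met the rule of the study for an enriched miRNA, at least 100 RPM in each m6A library and a mean m6A to IgG ratio of at least 2. Its mean ratio was 3.63 ± 2.38 (SD, n = 3). With an IgG count of 0 set to 3 reads, the rule was met by 11.8% of all miRNAs (258), more than the paper lists. A cutoff of 15 RPM in place of 100 was met by 4 members. The share of all miRNAs that meets this looser rule was not counted, so nothing is read from that number.

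miR-218-1-3p had 42.1, 59.4 and 44.4 RPM in the m6A libraries of FTO1C1, FTO2D4 and FTO3C3 (48.7 ± 9.39 (SD, n = 3)), and 31.0, 15.3 and 16.1 RPM in the IgG libraries (20.8 ± 8.87 (SD, n = 3)). All m6A values were above all IgG values. The IgG values rest on 23, 12 and 3 reads, and for FTO3C3 the ratio of 2.76 has a 95% counting interval of 0.933 to 13.5. The log2 fold change was 1.25 (SE 0.44), with an adjusted p of 0.0481 by edgeR. It was lost with totals without miR-6080 (0.53), TMM factors (0.47), DESeq2 (0.46), without FTO2D4 (0.81) and without FTO3C3 (1.19), with adjusted p of 0.322, 0.389, 0.568, 0.270 and 0.146, and a minimum count of 50 left it out of the test.

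The remaining members did not pass the test in this comparison. miR-9-5p had 8.78, 31.6 and 34.6 RPM in m6A and 13.5, 8.90 and 5.36 RPM in IgG of FTO1C1, FTO2D4 and FTO3C3. It was lower with the anti-m6A antibody in FTO1C1 and higher in the other lines, and the IgG value of FTO3C3 is 1 read, for a ratio of 6.45 with a 95% counting interval of 1.14 to 256. Its log2 fold change was 1.15 (SE 0.61), with an adjusted p of 0.167 by edgeR, and without FTO1C1 it was called higher (2.04, adjusted p of 0.0196). miR-218-5p had 24.6, 23.5 and 28.8 RPM in m6A and 22.9, 27.97 and 42.9 RPM in IgG, with a log2 fold change of -0.24 (SE 0.38) and an adjusted p of 0.649 by edgeR. Neither usual guide was thus called higher with the anti-m6A antibody than with the control antibody when all lines were used.

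miR-218-2-3p had 17.6, 35.2 and 168 RPM in the m6A libraries of FTO1C1, FTO2D4 and FTO3C3, against 24.3, 24.2 and 42.9 RPM in IgG. The library of FTO3C3, with 837 reads of this arm, stands far above the other two, and in FTO1C1 the m6A value was below that of IgG. Its log2 fold change was 0.72 (SE 0.48) with totals and -0.03 with TMM factors, with an adjusted p of 0.264 by edgeR with totals. miR-124-3p had 15.8, 17.6 and 18.1 RPM in m6A and 37.8, 8.90 and 42.9 RPM in IgG, with a log2 fold change of -0.54 (SE 0.53) and an adjusted p of 0.456 by edgeR. Its m6A values lay close together, and those of IgG fell on either side of them. miR-124-5p had 288, 54.3 and 45.04 RPM in m6A and 49.9, 48.3 and 21.5 RPM in IgG, with FTO1C1 far above the other lines in m6A, a log2 fold change of 1.30 (SE 0.51) and an adjusted p of 0.0713 by edgeR.

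Against input, the usual guides miR-9-5p and miR-218-5p fell strongly in both kinds of precipitate. In m6A against input, these 2 of the 7 members were called lower and 2 higher (miR-218-2-3p and miR-124-3p) by edgeR, where 66.8% of all miRNAs were called higher and 10.5% lower. The median log2 fold change was 0.69 over the 7 members and 1.65 over all 2174 miRNAs tested. In IgG against input, 3 of the 6 members tested were called lower (miR-9-5p, miR-218-5p and miR-124-5p) and 1 higher (miR-218-2-3p), where 36.8% of all miRNAs were called higher and 21.8% lower. There the median was -1.36 over the 6 members and 0.49 over all 1941 miRNAs tested, and miR-124-3p was not tested because of its low counts. Lower levels in precipitates were not particular to these guides. Mean RPM in input, m6A and IgG were 1681, 504 and 47.8 for hsa-miR-192-5p and 357, 137 and 66.9 for hsa-miR-128-3p. The marker hsa-miR-215-5p rose in m6A, with 158, 4556 and 55.7 RPM.

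miR-9-5p had 239, 628 and 325 RPM in the input libraries of FTO1C1, FTO2D4 and FTO3C3 (397 ± 205 (SD, n = 3)). The values of 24.97 ± 14.1 RPM in m6A and 9.25 ± 4.07 RPM in IgG (SD, n = 3 each) lay far below these, with no overlap. The IgG values rest on 10, 7 and 1 reads in FTO1C1, FTO2D4 and FTO3C3, so the size of the fold in IgG is uncertain. The log2 fold change was -3.98 (SE 0.46) in m6A against input, 15.8-fold lower (adjusted p of 2.52e-08 by edgeR), and -5.22 (SE 0.56) in IgG against input, 37.4-fold lower (4.45e-19). Both calls held under all 9 alternatives, between -5.57 and -3.54 for m6A and between -6.06 (without FTO1C1) and -4.05 (with totals without miR-6080) for IgG, with -4.58 without FTO2D4.

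miR-218-5p had 194, 345 and 225 RPM in the input libraries (254 ± 79.7 (SD, n = 3)). It had 25.6 ± 2.78 RPM in m6A and 31.3 ± 10.4 RPM in IgG (SD, n = 3 each), again with no overlap. The log2 fold change was -3.27 (SE 0.44) in m6A, 9.67-fold lower (adjusted p of 2.46e-07 by edgeR), and -3.08 (SE 0.49) in IgG, 8.48-fold lower (3.44e-09). These calls also held under all 9 alternatives, between -4.87 and -2.81 for m6A and between -3.67 and -1.94 for IgG, the latter with totals without miR-6080. The lower level relative to input was thus seen with the control antibody as well as with the anti-m6A antibody.

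miR-9-3p had 136, 101 and 86.6 RPM in input (108 ± 25.5 (SD, n = 3)), which its m6A and IgG values overlapped. Its log2 fold change in m6A against input was 0.76 (SE 0.43, adjusted p of 0.102 by edgeR) with totals, 1.22 with totals without miR-6080, where it passed (0.0157), and -0.78 with TMM factors. In IgG against input it was -0.95 (SE 0.49, adjusted p of 0.0844 by edgeR) with totals, -1.49 with TMM factors, where it passed (0.00387), and 0.20 with totals without miR-6080. The direction for this arm against input therefore depends on the scaling, in contrast to that of miR-9-5p.

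miR-218-1-3p had 34.8, 30.1 and 26.0 RPM in input (30.3 ± 4.40 (SD, n = 3)), below all of its m6A values. Its log2 fold change in m6A against input was 0.69 (SE 0.39, adjusted p of 0.103 by edgeR) with totals. It was called higher with totals without miR-6080 (1.15, adjusted p of 0.0150 by edgeR) and lower with TMM factors (-0.86, 0.0470). In IgG against input it was -0.58 (SE 0.53, 0.356) with totals, -1.04 with TMM factors (0.0420) and 0.58 with totals without miR-6080. Its direction against input rests on the scaling as well.

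miR-218-2-3p had 6.39, 16.4 and 7.33 RPM in input (10.1 ± 5.55 (SD, n = 3)), from 9 to 24 reads, and all of its precipitate values were above these. Its log2 fold change was 2.40 (SE 0.56) in m6A (adjusted p of 0.000375 by edgeR) and 1.55 (SE 0.53) in IgG (0.00708). The m6A value was 1.22 without FTO3C3 (adjusted p of 0.0296) and 3.24 without FTO2D4 (0.00121), and the IgG value was 2.20 without FTO2D4 (0.00149). With TMM factors neither passed (0.89 and 1.01, adjusted p of 0.207 and 0.0574), nor with DESeq2 (0.80 and 1.01, adjusted p of 0.252 and 0.154), and the IgG call was also lost without FTO1C1 (1.40, 0.122) and without FTO3C3 (1.15, 0.0812).

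miR-124-3p had 7.10, 5.48 and 5.33 RPM in input (5.97 ± 0.980 (SD, n = 3)), from 8 to 10 reads, below all of its precipitate values. Its log2 fold change in m6A against input was 1.55 (SE 0.46, adjusted p of 0.00345 by edgeR) with totals and -0.00 with TMM factors, so the call rests on the scaling to total reads. miR-124-5p had 122.8, 159 and 141 RPM in input (141 ± 18.1 (SD, n = 3)), above all 3 IgG values and between those of m6A. In IgG against input its log2 fold change was -1.78 (SE 0.48, adjusted p of 0.000601 by edgeR), and with totals without miR-6080 it was -0.62 (0.200). In m6A against input it was -0.71 (SE 0.50, 0.190), and without FTO1C1, the library with 288 RPM, it was -1.60 and passed (0.00372), as it did with TMM factors (-2.26, 0.0108).

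**Figure D3:**
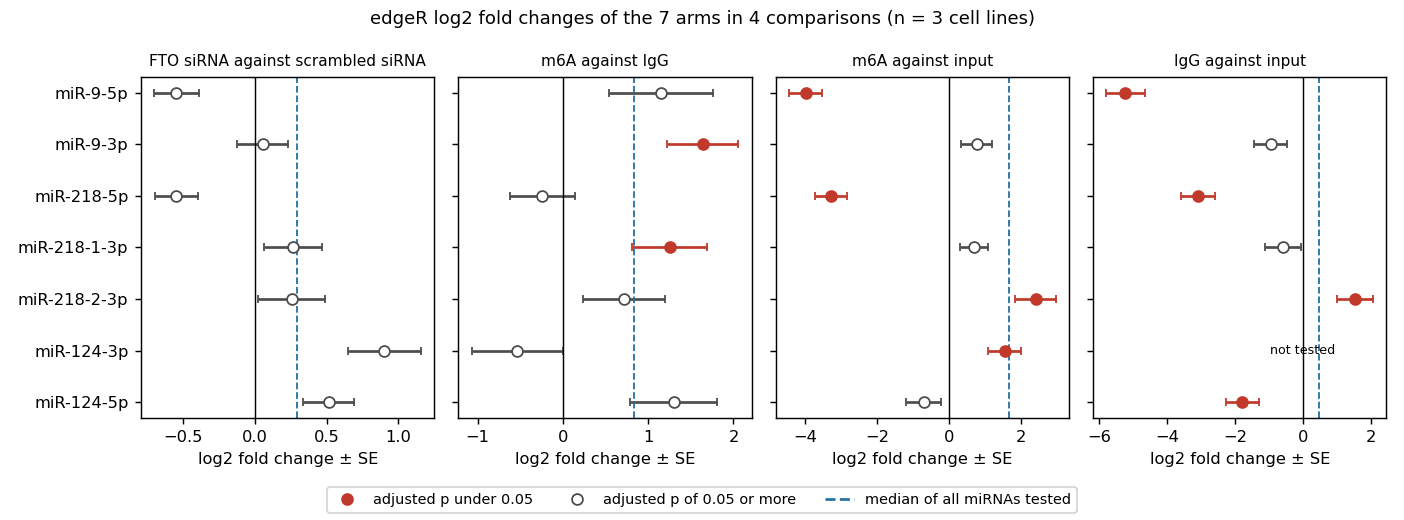
edgeR log2 fold changes of the 7 arms (points, with SE bars; n = 3 cell lines) in the 4 comparisons, on library totals, filled where the adjusted p was under 0.05, with the zero line and, dashed, the median of all miRNAs tested. miR-9-5p and miR-218-5p stand at -3.98 and -3.27 in m6A against input and at -5.22 and -3.08 in IgG against input, away from medians of 1.65 and 0.49.

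The ratio of the arms of a hairpin within a library does not depend on the total of the library, nor on miR-6080. With 0.5 read added to each count, miR-9-5p was 4.12, 5.02 and 3.08 times miR-9-3p in the scrambled siRNA controls of FTO1C1, FTO2D4 and FTO3C3, and 2.90, 2.64 and 2.39 times miR-9-3p after the knockdown. It was 1.75, 6.18 and 3.74 times miR-9-3p in input. The 5p arm was thus the more abundant arm in all 9 of these libraries, and each line had a lower ratio after the knockdown.

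In the precipitates the order of the miR-9 arms was the reverse. The 5p to 3p ratio was 0.0894, 0.160 and 0.134 in m6A and 0.382, 0.294 and 0.0508 in IgG. The 3p arm was thus the more abundant in all 6 precipitates, whichever antibody was used. The log2 ratio differed by -4.79 ± 0.49 between m6A and input, by -4.26 ± 2.01 between IgG and input, by -0.53 ± 1.77 between m6A and IgG, and by -0.60 ± 0.29 between FTO siRNA and scrambled siRNA (SD, n = 3 lines each). The difference between m6A and IgG was below 0 in FTO1C1 and FTO2D4 and above 0 in FTO3C3, where IgG had 1 read of the 5p arm, and its mean was 0.26 without FTO1C1. With 3 lines an exact permutation test cannot give a p below 0.25, so these differences are descriptions.

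For miR-218 the ratio also fell in the precipitates, but the order of the arms was not reversed in all of them. miR-218-5p was 31.6, 28.2 and 39.7 times miR-218-1-3p in the controls of FTO1C1, FTO2D4 and FTO3C3, and 24.4, 15.8 and 16.9 times after the knockdown. It was 5.53, 11.3 and 8.54 times miR-218-1-3p in input, and only 0.592, 0.399 and 0.648 times in m6A and 0.745, 1.80 and 2.43 times in IgG. The ratio was lower in each m6A and IgG library than in the input of the same line, and lower after the knockdown in each line. Relative to miR-218-2-3p, the 5p arm went from 28.8, 20.6 and 29.3 times in input to 1.38, 0.670 and 0.171 times in m6A and 0.946, 1.15 and 1.00 times in IgG. The IgG ratios rest on few reads, 8 to 22 of miR-218-5p, 3 to 23 of miR-218-1-3p and 8 to 19 of miR-218-2-3p.

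The 3p to 5p ratio of miR-124 was 0.0605, 0.0366 and 0.0400 in input, 0.0578, 0.329 and 0.403 in m6A and 0.760, 0.195 and 1.89 in IgG. Here the 3p arm is the usual guide, and the ratio was higher than in the input of the same line in each IgG library and in the m6A libraries of FTO2D4 and FTO3C3. The counts behind these ratios are small, with 7 to 28 reads of miR-124-3p in IgG and 4 to 38 of miR-124-5p.

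**Figure D4:**
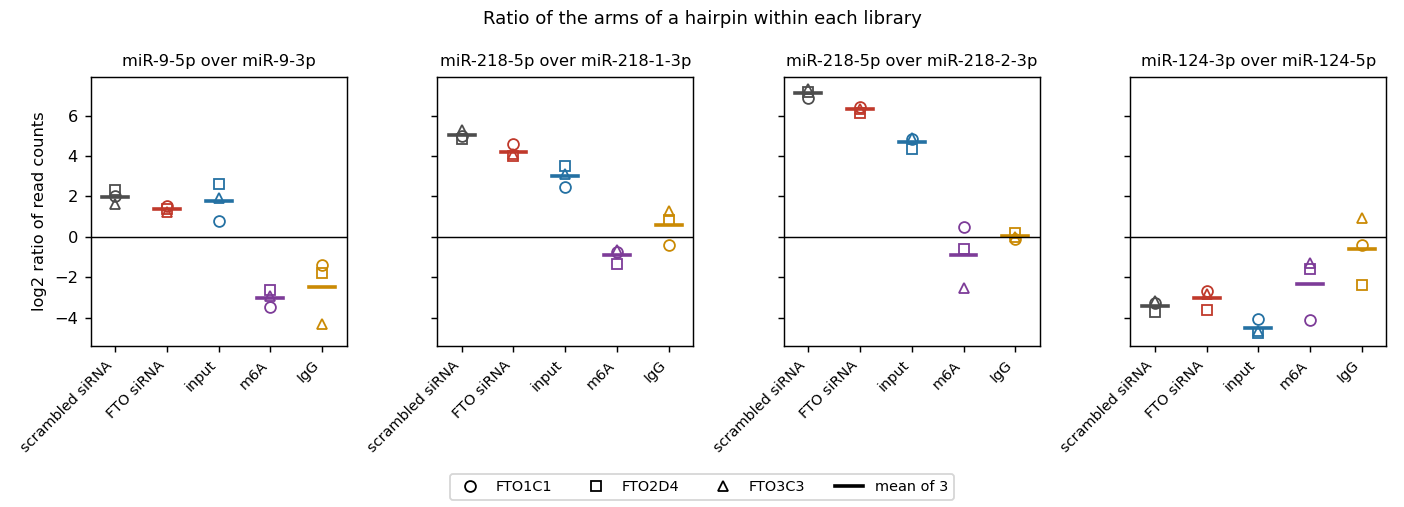
log2 ratio of the read counts of the arms within each library (0.5 read added to each), by group, with a symbol per cell line and a bar at the mean of 3 libraries. For miR-9 the 9 unprecipitated libraries lie above 0 and the 6 precipitates below it, and the ratio of miR-218-5p to each of its 3p arms is lower in every precipitate than in the inputs.

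The levels in input and with scrambled siRNA, both of unprecipitated RNA but of separate preparations and counts, were not tested against each other. miR-218-5p was at 254 RPM in input against 1243 RPM with scrambled siRNA, a ratio of 4.89, and miR-9-5p at 397 against 722, a ratio of 1.82, whereas miR-124-5p was higher in input (141 against 67.2 RPM). miR-124-3p differed little between them (5.97 and 6.13 RPM). Across the 5 groups, neighbouring means of miR-218-1-3p, in the order m6A, FTO siRNA, scrambled siRNA, input and IgG, overlapped in range at every step when the pairing by line is left aside. Within the lines it was lower in IgG than in input in 3 of 3 (ratios of 0.892, 0.506 and 0.619) and higher after FTO siRNA in 3 of 3 (1.07, 1.05 and 1.55). For miR-218-5p, by the same ranges and in the order scrambled siRNA, FTO siRNA, input, IgG and m6A, only the last step overlapped.

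The brain-enriched list was followed through the same comparisons, and 15 of its miRNAs were tested in each. Of these 15, 0 were called higher and 1 lower after FTO siRNA by edgeR (hsa-miR-7-5p, log2 fold change -1.58, adjusted p of 0.0323), where 4.97% and 0.505% of all miRNAs were called, and the median was -0.04 against 0.29 over all miRNAs. In m6A against IgG, 6 were called higher and 1 lower, where 38.6% and 1.27% of all miRNAs were called (median 0.77 against 0.83), with hsa-miR-219a-5p (3.68), hsa-miR-153-3p (2.08), hsa-miR-338-3p (2.00), hsa-miR-383-5p (1.51) and hsa-miR-137 (1.32) the largest. In m6A against input, 5 were called higher and 6 lower, where 66.8% and 10.5% of all miRNAs were called (median -0.66 against 1.65), among them hsa-miR-137 (-2.78), hsa-miR-326 (2.64), hsa-miR-129-5p (2.26), hsa-miR-330-3p (1.94) and hsa-miR-138-5p (-1.69). In IgG against input, 2 were called higher and 7 lower, where 36.8% and 21.8% of all miRNAs were called (median -0.81 against 0.49), among them hsa-miR-137 (-4.44), hsa-miR-153-3p (-3.05), hsa-miR-326 (2.93), hsa-miR-219a-5p (-2.72) and hsa-miR-383-5p (-2.57). Those called lower than input with both antibodies, as miR-9-5p was, were hsa-miR-137, hsa-miR-138-5p, hsa-miR-128-3p and hsa-miR-153-3p.

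The miRNAs whose levels ran most like those of the members are given as descriptions, by Pearson's r of log2(RPM + 1) over libraries that share group differences and totals. Over the 9 RIP-seq libraries and 1885 miRNAs, miR-9-5p ran most like hsa-miR-30a-3p (0.989) and hsa-miR-424-5p (0.981), and miR-218-5p most like hsa-miR-4443 (0.993) and hsa-miR-148b-3p (0.991). miR-9-3p ran most like hsa-miR-627-5p (0.949) and hsa-miR-3144-5p (0.915). miR-9-5p and miR-218-5p correlated with each other at 0.907, whereas miR-9-5p and its own 3p arm did so at 0.177. For the low arms the closest were hsa-miR-3074-3p (0.937) and hsa-miR-511-3p (0.929) for miR-218-1-3p, and hsa-miR-6071 (0.943) and hsa-miR-760 (0.917) for miR-218-2-3p. For miR-124-3p they were hsa-miR-5092 (0.961) and hsa-miR-4311 (0.961), and for miR-124-5p hsa-miR-338-3p (0.941), of the brain list, and hsa-miR-4728-3p (0.911).

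Over the 6 knockdown libraries and 1305 miRNAs the closest miRNAs were other ones. They were hsa-miR-30a-5p (0.969) and hsa-miR-615-3p (0.945) for miR-9-5p, and hsa-miR-769-5p (0.970) and hsa-miR-31-5p (0.969) for miR-218-5p. For miR-9-3p they were hsa-miR-4753-5p (0.977) and hsa-miR-1185-1-3p (0.974), for miR-218-1-3p hsa-miR-195-3p (0.982) and hsa-miR-24-3p (0.962), and for miR-124-5p hsa-miR-645 (0.987) and hsa-miR-4704-5p (0.985). miR-9-5p and miR-218-5p correlated at 0.761 there, and the arms of miR-9 at 0.0945.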

How the data were processed

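Small RNA of the 15 libraries was sequenced, and the authors deposited raw, unscaled read counts per mature miRNA (2418 miRNAs for the knockdown, 2189 for RIP-seq). Per the methods, adapters were removed with cutadapt, reads of 16 to 28 bases were kept and matched to miRBase release 20 by exact stretches of at least 7 bases covering at least 17, and entries of the same sequence were joined. Such short exact stretches can share reads among similar miRNAs.

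Each count was divided by the total of its library to give RPM. Differences were tested with edgeR 4.0.16 (quasi-likelihood test by glmQLFit and glmQLFTest, low counts filtered by filterByExpr at 10 reads, no scaling beyond the totals, cell line as a block) on all miRNAs of a comparison, adjusted by Benjamini-Hochberg at 0.05; R 4.3.3, DESeq2 1.42.0, Python 3.11.15 and scipy 1.17.1 were used. The test was also run on simulated counts. These had no differences between lines and as many miRNAs raised as lowered, so they do not cover the scaling shifts seen here. Alternatives were TMM factors, DESeq2, no filter, a minimum count of 50, totals without miR-6080, no replicate block and leaving out each line. Intervals of ratios are exact (Clopper-Pearson, 95%) and cover counting error only.

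Libraries of the same name came from the same cell line, which pairs them; their deviations from the group means correlated at 0.137 to 0.225 in the knockdown, 0.0960 to 0.175 for m6A and IgG, -0.0901 to -0.0377 for m6A and input and -0.0531 to 0.144 for IgG and input. Libraries of a group differed beyond sampling noise, so none was a copy. The replicates are clones of 1 parent line. With the cell line as a block, p-values rest on how far the difference between groups varied from line to line. They do not measure the level differences among the clones.

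The members and the brain and marker lists were chosen with earlier results of these data known. Named besides the members were the brain list by its calls (at most the 5 largest fold changes in a comparison) and levels, and the 2 miRNAs most correlated with each member. Single miRNAs of the marker lists were named for their levels.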

Additional observations from a re-analysis of the deposited data

How the results depend on the processing

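The lower values of miR-9-5p and miR-218-5p in both precipitates against input passed the test under all 9 alternatives. Of the 229 alternative values of single members, 176 kept their direction and side of the threshold, 17 kept their direction but no longer passed, 18 kept it and newly passed, and 18 changed sign, of which 2 also lost their call and 1 newly passed. After FTO siRNA, 2 members were called in place of 0 with TMM factors, DESeq2 or a minimum count of 50, and none without any single line. In m6A against IgG, the 2 calls became 0 with TMM factors, DESeq2 or totals without miR-6080, 1 with a minimum count of 50 (only 1 member is then tested) or no replicate block, and 0 to 3 when a line was left out (0 without FTO2D4). In m6A against input, a minimum count of 50 left 2 calls in place of 4, since fewer members were tested. A cutoff of 15 RPM gave 4 enriched members in place of 1, with the share of all miRNAs not counted at that cutoff.

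Values that changed sign were, after FTO siRNA, those of miR-218-1-3p (-0.031 with TMM factors, -0.033 with DESeq2), miR-218-2-3p (-0.041 and -0.037) and miR-9-3p (-0.24 with both, and from -0.056 to 0.25 when a line was left out, below 0 without FTO1C1 or FTO2D4). In m6A against IgG it was miR-218-2-3p (-0.027 with TMM factors, -0.091 with DESeq2). In m6A against input they were miR-124-3p (-0.0020 and -0.030), miR-218-1-3p (-0.86 and -0.89) and miR-9-3p (-0.78 and -0.81) with TMM factors and DESeq2, and in IgG against input, with totals without miR-6080, miR-218-1-3p (0.58) and miR-9-3p (0.20). The difference of the log2 arm ratio of miR-9 between m6A and IgG ranged from -1.49 to 0.26 when a line was left out. The cause of these changes was not tested.

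TMM factors moved the median log2 fold change of all miRNAs from 0.29 to -0.00 in the knockdown, from 0.83 to 0.06 in m6A against IgG, from 1.65 to 0.10 in m6A against input and from 0.49 to -0.02 in IgG against input, so directions near these shifts rest on the scaling. The calls over all miRNAs, 118 higher and 12 lower in the knockdown, became 21 and 34 with TMM factors, 41 in all with no replicate block, 0 without FTO1C1 (327 at an unadjusted p under 0.05 by edgeR) and 201 without FTO3C3. In m6A against IgG, 792 and 26 became 453 and 302 with TMM factors, 425 in all with a minimum count of 50 and 470 without FTO2D4. In m6A against input, 1452 and 229 became 575 and 614 with TMM factors, 1086 in all with DESeq2 and 1068 with a minimum count of 50. In IgG against input, 714 and 423 became 559 and 586 with TMM factors and 581 in all with a minimum count of 50. The fit with no replicate block changed a member's call only for miR-9-3p, in m6A against IgG (1.51, adjusted p of 0.0608 by edgeR) and in m6A against input (0.82, adjusted p of 0.0493). Depth limits the IgG library of FTO3C3 most, where 1 read is 5.36 RPM.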
